A study of Mus musculus with 9 samples.

Results

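The genes described here are 57 genes of mitosis, the kinetochore and the spindle, found by their exact symbols among the 38197 gene symbols of the count and FPKM tables. All 57 symbols were found, and all 57 passed the filter on low counts, with between 42 and 24050 reads per gene and library. By role they fall into 8 subsets, with 13 kinetochore genes, 10 kinesins and 5 spindle checkpoint genes beside genes of mitotic entry, spindle midzone and cytokinesis, chromosome structure, anaphase and transcription. They were measured in neural stem cells (NSCs) made from wild-type mouse embryonic stem cells of strain 129, grown as a monolayer and given retinoic acid (RA) and SAG, an agonist of the Hedgehog transducer Smo, at 0-3 DDC (days in differentiation conditions). This treatment directs the cells towards ventral hindbrain types. Cells carrying the surface protein prominin-1 were collected on magnetic beads at 4.5DDC, 5.5DDC and 6.5DDC, with 3 libraries of polyadenylated RNA per time point. The labels give these times as 4, 5 and 6 days in another field, and they do not say whether replicates are separate cultures, so p-values measure the spread between these libraries.

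Cells that cycle make most of their mitotic proteins shortly before they divide. Cyclin-dependent kinase with its cyclins starts mitosis, the kinetochore couples each centromere to spindle microtubules, kinesins move and shape the spindle, and the spindle checkpoint holds back anaphase until chromosomes are attached. Once chromatids part, the midzone and the contractile ring divide the cell. In the developing neural tube NSCs divide while they give rise to neurons, which leave the cell cycle and lose these transcripts. In bulk RNA, fewer cells in division and less of a transcript per dividing cell cannot be told apart.

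Many genes that peak late in the cell cycle carry 2 short promoter elements, the cell cycle genes homology region (CHR, TTTGAA or TTCGAA) and the CCAAT box, and the CHR is bound by complexes that can include the products of Mybl2 and Foxm1. RefSeq starts on build GRCm38.p6 were found for 48 of the 57 genes, with 53 promoters of 300 bases (250 before and 50 after the start), and letters were searched on both strands. TTTGAA was present in 66.0% of these promoters and in 17.9% of all 32851 promoters of the table. CCAAT was present in 77.4% against 37.4%, and a CHR together with CCAAT in 64.2% against 7.52%. A match is a description of letters and not a measured binding site. The stretches below are the 120 bases before the start, 5′ to 3′ on the strand of the gene, with each CHR and each CCAAT in capitals (TTCAAA and ATTGG are their reverse complements). Shown are the most abundant genes (Cdk1 and Top2a), anaphase genes and a kinesin with both elements close to the start (Cdc20, Ube2c, Espl1 and Kif11), the checkpoint gene of smallest fall (Bub3), both copies of a kinesin gene (Kifc1 and Kifc5b), a gene of large fall without either element here (Mybl2) and the gene that was not called (Cdc25b).
Cdk1, chr10:69352913-69353032, minus strand: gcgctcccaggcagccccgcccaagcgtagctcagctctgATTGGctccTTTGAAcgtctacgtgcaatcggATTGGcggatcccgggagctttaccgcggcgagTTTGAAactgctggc
Top2a, chr11:99024190-99024309, minus strand: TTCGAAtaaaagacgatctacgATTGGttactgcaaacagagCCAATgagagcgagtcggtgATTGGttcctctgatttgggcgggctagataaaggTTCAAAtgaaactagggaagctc
Cdc20, chr4:118437344-118437463, minus strand: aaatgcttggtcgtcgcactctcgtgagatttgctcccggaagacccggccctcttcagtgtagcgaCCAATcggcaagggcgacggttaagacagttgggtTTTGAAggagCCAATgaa
Ube2c, chr2:164769809-164769928, plus strand: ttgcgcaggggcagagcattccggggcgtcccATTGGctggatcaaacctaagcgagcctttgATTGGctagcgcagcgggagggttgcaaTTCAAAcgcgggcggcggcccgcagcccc
Espl1, chr15:102296173-102296292, plus strand: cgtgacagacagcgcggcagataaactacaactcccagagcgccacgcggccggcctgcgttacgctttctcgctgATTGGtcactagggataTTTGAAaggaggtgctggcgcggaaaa
Kif11, chr19:37376262-37376381, plus strand: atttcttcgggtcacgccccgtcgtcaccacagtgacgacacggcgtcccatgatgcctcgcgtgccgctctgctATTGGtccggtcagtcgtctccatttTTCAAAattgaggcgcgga
Bub3, chr7:131560250-131560369, plus strand: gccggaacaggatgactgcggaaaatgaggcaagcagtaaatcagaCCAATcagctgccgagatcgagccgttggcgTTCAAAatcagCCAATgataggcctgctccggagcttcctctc
Kifc1, chr17:33890634-33890753, minus strand: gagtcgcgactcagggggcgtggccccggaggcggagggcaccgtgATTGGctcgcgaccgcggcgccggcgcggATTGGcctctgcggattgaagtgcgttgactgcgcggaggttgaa
Kifc5b, chr17:26916971-26917090, plus strand: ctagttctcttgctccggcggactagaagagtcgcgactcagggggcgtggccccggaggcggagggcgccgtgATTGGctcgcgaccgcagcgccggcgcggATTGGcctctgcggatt
Mybl2, chr2:163054515-163054634, plus strand: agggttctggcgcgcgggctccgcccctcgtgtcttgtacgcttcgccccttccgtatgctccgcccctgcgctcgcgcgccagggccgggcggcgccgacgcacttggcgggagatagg
Cdc25b, chr2:131186828-131186947, plus strand: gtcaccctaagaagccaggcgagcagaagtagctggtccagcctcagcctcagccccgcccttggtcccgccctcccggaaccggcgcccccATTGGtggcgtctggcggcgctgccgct

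The libraries held between 11066572 and 25506192 counts. Libraries numbered 1 stood apart from those numbered 2 and 3 at each time point, in deviations that correlated across genes, and no label states what the number stands for. Neuron markers differed between these libraries too, since the summed level of 14 such genes was between 279 and 761 FPKM at 4.5DDC, between 236 and 920 FPKM at 5.5DDC and between 496 and 1120 FPKM at 6.5DDC, with replicate 1 lowest each time. None of the 14 was listed at 0 in all libraries. Of these 14 genes 13 had a higher fitted level at 6.5DDC than at 4.5DDC, against 7406 of all 14742 genes. Their median change was 1.03 on the log2 scale. Of the 14, 3 (Map2, Syt1 and Myt1l) were called higher at 6.5DDC than at 4.5DDC, against 9.21% of all genes called higher. The 11 progenitor markers summed to between 2257 and 2730 FPKM at 4.5DDC and to between 3017 and 3203 FPKM at 6.5DDC. Of these 11 genes 6 had a lower and 5 a higher fitted level at 6.5DDC, with a median change of -0.05 on the log2 scale. Prom1, the sorted surface protein, was called higher at 1.19 and Sox3 was called lower at -1.80, while Hes5 had the lowest value at -2.10 (adjusted p = 0.0522). Of 8 pluripotency markers 6 stayed under 1 FPKM in all 9 libraries, and of 10 endoderm markers 5 did. The endoderm markers summed to between 2.496 and 6.38 FPKM at 4.5DDC, and at 6.5DDC to 17.9 FPKM in replicate 1, 4.02 in replicate 2 and 3.80 in replicate 3. Of the 4 that were tested 3 had a higher fitted level at 6.5DDC, with a median change of 1.42, and none was called. The 10 mesenchyme markers summed to between 115 and 224 FPKM at 4.5DDC and to between 136 and 151 FPKM at 6.5DDC. That sum is held mostly by Tagln, Fn1 and Acta2, and 7 of the 10 genes had a higher fitted level at 6.5DDC, with a median change of 1.30, and Twist1 (0.74, adjusted p = 0.0276) and Postn (3.31, adjusted p = 0.0422) were called higher. Lum was at 3.37 (adjusted p = 0.0583), and Postn and Lum had mean levels of 1.69 and 2.17 FPKM at 6.5DDC. The part of these shifts in the results below was not tested.

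The first question was how mitotic transcripts changed between 4.5DDC and 6.5DDC. All 57 genes had a lower fitted level at 6.5DDC, against 49.8% of all genes, and 56 passed the test, which is edgeR's quasi-likelihood test on counts with Benjamini-Hochberg adjustment over 14742 genes and a threshold of 0.05. Over all genes tested, 9.53% were called lower and 18.7% were called in either direction. The median log2 fold change of the 57 genes was -1.20, against 0.0040 over all genes, and single genes lay between -2.03 for Kifc5b and -0.41 for Cdc25b. Mean FPKM at 6.5DDC was between 18.8% and 64.1% of the mean at 4.5DDC, with a median of 44.0%. In FPKM, all 3 libraries of 6.5DDC lay below all 3 of 4.5DDC for 57 of the 57 genes, an order that 16.7% of all genes showed. For Cdc25b that order rests on libraries at 27.7 and 27.6 FPKM. An exact permutation test of 3 libraries against 3 cannot give a two-sided p under 0.1.

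**Figure D1:**
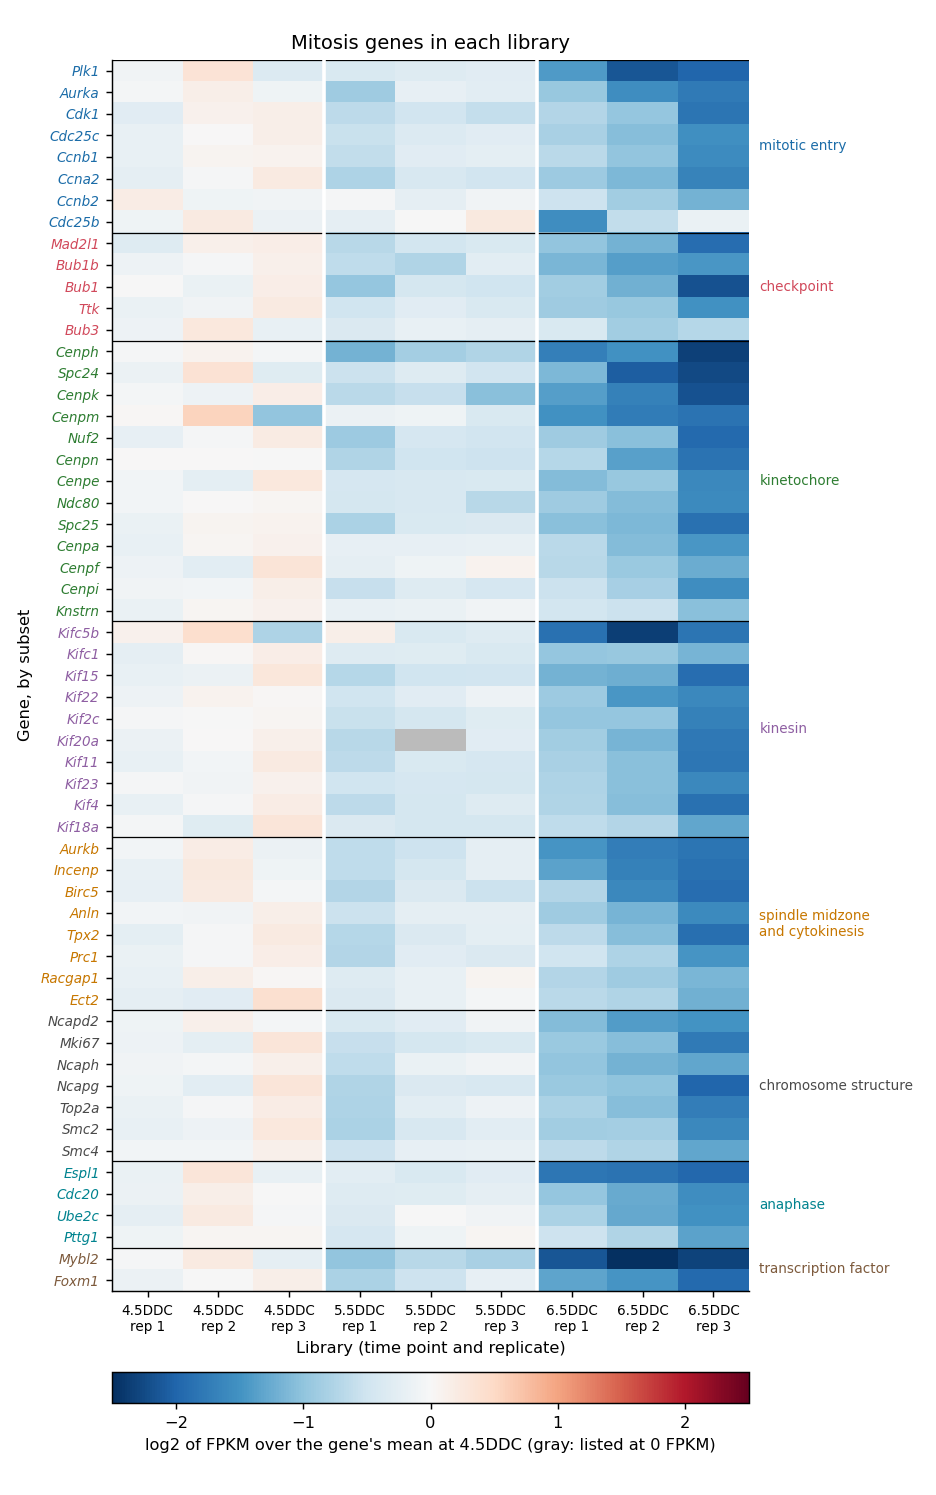
Each row is 1 of the 57 genes, grouped by subset, and each column is 1 of the 9 libraries. Colour gives log2 of the FPKM over the gene's mean at 4.5DDC, and gray marks Kif20a in 5.5DDC replicate 2, which is listed at 0 FPKM. Replicate 3 of 6.5DDC is the lowest library for 51 of the 56 genes without a value of 0, and Cdc25b is among the exceptions.

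The size of the fall differed among replicates of 6.5DDC. The median gene stood at 53.9%, 47.4% and 32.01% of its 4.5DDC mean in replicates 1, 2 and 3 of 6.5DDC, and at 67.5%, 78.1% and 81.3% in those of 5.5DDC. Replicate 3 of 6.5DDC was the lowest of all 9 libraries for 51 of the 56 genes with FPKM above 0 throughout, and replicate 1 was the highest of 6.5DDC for 50. At 5.5DDC replicate 1 was the lowest for 47. Within libraries of the same number, the median log2 fold change over the whole span was -0.66 for number 1, -1.07 for number 2 and -1.86 for number 3, and 56 of the 57 genes were lower within each number. The exception was Cdc25b, at 0.13 within number 3. Over this span the deviations of libraries numbered 2 or 3 did not correlate by number, so values within a number describe libraries that share a label. Leaving out 1 library at a time left between 39 and 56 genes called, with the fewest without 6.5DDC replicate 2, while between 3.7% and 10.3% of all genes were called lower.

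**Figure D2:**
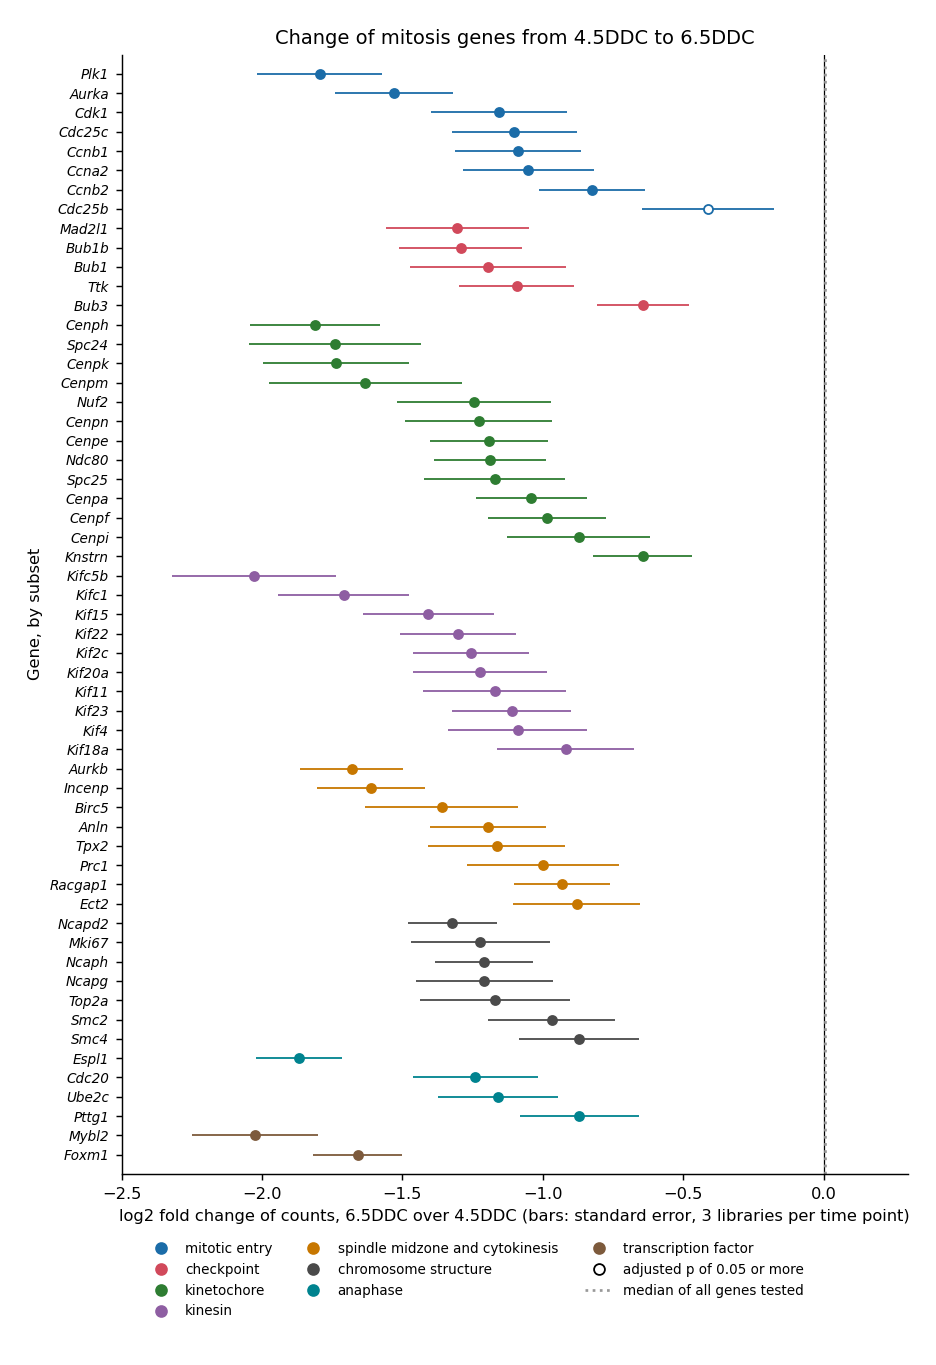
Points give the fitted log2 fold change of counts from 4.5DDC to 6.5DDC for each of the 57 genes, with bars for 1 standard error over 3 libraries per time point, and colours mark subsets. All points lie left of the dotted median of all genes, and the open point of Cdc25b is the 1 that missed the threshold.

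Genes of mitotic entry were led in level by Cdk1, the kinase that drives the G2-to-M transition. Cdk1 was measured at 241, 314 and 323 FPKM at 4.5DDC, 187, 211 and 193 at 5.5DDC and 176, 150.4 and 82.7 at 6.5DDC. Its 3 time points did not overlap, and Cdk1 fell by 1.16 on the log2 scale (SE 0.24, adjusted p = 0.0119). Its partner Ccna2, the cyclin of S and G2 phases, stood at 122, 139.7 and 168 FPKM at 4.5DDC, 84.3, 109 and 103 at 5.5DDC and 76.3, 66.1 and 44.9 at 6.5DDC. Ccnb1, the main mitotic cyclin, stood at 95.8, 115 and 116 FPKM at 4.5DDC, 70.8, 89.8 and 92.2 at 5.5DDC and 68.2, 54.7 and 36.5 at 6.5DDC. Both cyclins were lower in each library of a later time point than in any library of an earlier one. Ccna2 fell by 1.05 on the log2 scale (SE 0.23, adjusted p = 0.0149), and Ccnb1 fell by 1.09 on the log2 scale (SE 0.22, adjusted p = 0.0111). Ccnb2, a second B-type cyclin, fell by 0.82, and the phosphatase Cdc25c, which removes the inhibitory phosphates of Cdk1, fell by 1.10 on the log2 scale.

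Plk1, the Polo-like kinase that acts from mitotic entry to cytokinesis, had the largest fall of this subset. Its levels were 34.02, 45.7 and 28.3 FPKM at 4.5DDC, 27.8, 28.7 and 29.5 at 5.5DDC and 13.5, 8.14 and 9.09 at 6.5DDC, so 4.5DDC and 5.5DDC overlapped and 6.5DDC lay apart from both. Plk1 fell by 1.79 on the log2 scale (SE 0.22, adjusted p = 0.00165). Aurka, the kinase of centrosomes and spindle poles, fell by 1.53 on the log2 scale (adjusted p = 0.00228). Cdc25b, the phosphatase that starts Cdk1 activation, was the gene that did not pass, with a log2 fold change of -0.41 (SE 0.24, adjusted p = 0.238). Its levels were 28.8, 35.9 and 27.7 FPKM at 4.5DDC, 26.5, 30.5 and 36.3 at 5.5DDC and 10.6, 20.03 and 27.6 at 6.5DDC. Replicate 1 of 6.5DDC was low and replicate 3 was at the level of 4.5DDC, while in the other 7 genes of the subset replicate 1 was the highest of 6.5DDC. Without 6.5DDC replicate 2, 3 of the calls were lost, with adjusted p = 0.0535 for Cdk1, 0.0527 for Ccna2 and 0.0688 for Ccnb2.

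The 5 genes of the spindle checkpoint all fell, with a median of -1.20. Mad2l1, which inhibits the anaphase-promoting complex at unattached kinetochores, fell furthest. It was measured at 56.2, 77.1 and 78.8 FPKM at 4.5DDC, 43.97, 51.1 and 54.3 at 5.5DDC and 35.6, 31.1 and 18.8 at 6.5DDC, and it fell by 1.31 on the log2 scale (SE 0.26, adjusted p = 0.00908). Bub1b, the pseudokinase BubR1 of the same inhibitory complex, was measured at 66.4, 70.9 and 79.3 FPKM at 4.5DDC, 46.5, 43.1 and 60.2 at 5.5DDC and 32.8, 27.9 and 26.2 at 6.5DDC. It fell by 1.29 on the log2 scale (SE 0.22, adjusted p = 0.0053), and no library of 5.5DDC reached the lowest of 4.5DDC.

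Bub1, the kinase that recruits checkpoint proteins to the kinetochore, stood at 61.6, 55.4 and 69.5 FPKM at 4.5DDC, 31.9, 45.6 and 44.04 at 5.5DDC and 33.8, 27.1 and 13.7 at 6.5DDC. Replicate 1 of 5.5DDC lay below replicate 1 of 6.5DDC, so these time points overlapped, while 4.5DDC lay above both. Bub1 fell by 1.20 on the log2 scale (SE 0.28, adjusted p = 0.0181). Ttk, the Mps1 kinase at the top of the pathway, fell by 1.09 on the log2 scale. Bub3, the WD-repeat partner of Bub1 and BubR1, had the smallest fall of the subset. Its promoter stretch above holds a CHR and CCAAT boxes, while the 120 bases before another RefSeq start of Bub3 hold neither. Bub3 stood at 63.8, 83.2 and 61.4 FPKM at 4.5DDC, 54.3, 60.8 and 59.5 at 5.5DDC and 53.1, 38.2 and 42.3 at 6.5DDC, and it fell by 0.64 on the log2 scale (SE 0.16, adjusted p = 0.0255). The call for Bub3 was lost without 4.5DDC replicate 2 (adjusted p = 0.0957), 6.5DDC replicate 2 (0.105) or 6.5DDC replicate 3 (0.0716). The call for Bub1 was lost without 4.5DDC replicate 3 (adjusted p = 0.0545) or 6.5DDC replicate 2 (0.063).

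All 13 kinetochore genes fell, with a median of -1.19 and a range from -1.81 for Cenph to -0.64 for Knstrn. Cenph, a subunit of the inner kinetochore network on centromeric chromatin, stood at 30.2, 32.7 and 29.8 FPKM at 4.5DDC, 13.7, 17.1 and 18.4 at 5.5DDC and 9.51, 10.8 and 6.1 at 6.5DDC. Each library of 5.5DDC was below every library of 4.5DDC, with means of 30.9 ± 1.59 and 16.4 ± 2.42 FPKM (SD, n = 3). Cenph fell by 1.81 on the log2 scale (SE 0.23, adjusted p = 0.00182). Its partner in the same network Cenpk fell by 1.74 and Cenpm fell by 1.63 on the log2 scale. Cenpm was the least abundant of the 57 genes, at 6.98, 10.1 and 3.43 FPKM at 4.5DDC and 2.39, 2.04 and 1.9 FPKM at 6.5DDC. Cenpn, which reads the centromeric histone, fell by 1.23, and Cenpi, another subunit of the network, fell by 0.87 on the log2 scale.

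Cenpa, the histone H3 variant that marks centromeres, was the most abundant kinetochore gene. It stood at 91.3, 107 and 112 FPKM at 4.5DDC, 89.6, 89.6 and 91.3 at 5.5DDC and 64.4, 48.5 and 37.5 at 6.5DDC, and it fell by 1.04 on the log2 scale (SE 0.20, adjusted p = 0.00822). Levels at 5.5DDC were close to those of 4.5DDC replicate 1, and each library of 6.5DDC was lower than any other. The Ndc80 complex, which binds microtubules at the outer kinetochore, was represented by all 4 of its subunits. Ndc80 itself stood at 28.8, 30.3 and 31.4 FPKM at 4.5DDC, 22.2, 22.8 and 18.8 at 5.5DDC and 16.4, 14.2 and 9.99 at 6.5DDC, and it fell by 1.19 on the log2 scale (SE 0.20, adjusted p = 0.0051). Its partner Nuf2 fell by 1.24, Spc24 fell by 1.74 and Spc25 fell by 1.17 on the log2 scale. Spc24 at 24.5 FPKM and Spc25 at 97.7 FPKM at 4.5DDC thus changed in the same direction from different levels.

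Of the kinetochore genes that act with motors and the fibrous corona, Cenpe, a plus-end directed kinesin of chromosome congression, fell by 1.19, and Cenpf, a large coiled-coil protein, fell by 0.98 on the log2 scale. Knstrn, the kinastrin of spindle poles and kinetochores, stood at 81.8, 94.2 and 97.9 FPKM at 4.5DDC, 79.8, 80.9 and 85.9 at 5.5DDC and 66.2, 62.5 and 44.03 at 6.5DDC. The first 2 time points overlapped, and Knstrn fell by 0.64 on the log2 scale (SE 0.18, adjusted p = 0.0328). Calls of this subset that depended on single libraries were those for Cenpi, Knstrn, Cenpm and Cenpn. Without 6.5DDC replicate 2 the adjusted p was 0.106 for Cenpi, 0.0575 for Knstrn, 0.0523 for Cenpm and 0.0584 for Cenpn. Without 4.5DDC replicate 3 it was 0.116 for Cenpi and 0.0958 for Knstrn, and Cenpi lost its call without any 1 of 7 libraries and Knstrn without any 1 of 6.

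The 10 kinesins all fell, with a median of -1.24. Kif22, a chromosome-arm motor, had the highest mean, at 56.6, 65.97 and 63.5 FPKM at 4.5DDC, 43.99, 50.97 and 56.5 at 5.5DDC and 33.1, 22.5 and 20.3 at 6.5DDC, and it fell by 1.30 on the log2 scale (SE 0.21, adjusted p = 0.00407). Kif11, the tetrameric Eg5 motor that pushes spindle poles apart, was measured at 43.7, 47.7 and 58.5 FPKM at 4.5DDC, 31.8, 38.5 and 37.6 at 5.5DDC and 28.4, 24.1 and 14.3 at 6.5DDC. Its time points did not overlap, and Kif11 fell by 1.17 on the log2 scale (SE 0.25, adjusted p = 0.0138). Kif15, which can take over part of that task, fell by 1.41, and Kif2c, the microtubule depolymerase MCAK, fell by 1.25 on the log2 scale.

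Kif23, a subunit of the centralspindlin complex, fell by 1.11, the chromokinesin Kif4 fell by 1.09 and Kif20a, a midzone motor, fell by 1.22 on the log2 scale in counts. Kif20a was listed at 0 FPKM in 5.5DDC replicate 2, where 2185 reads were counted for it, so its FPKM value in that library cannot be read as a level. Kif18a, which dampens chromosome movement, had the smallest fall of the kinesins. It stood at 16.2, 13.5 and 20.6 FPKM at 4.5DDC, 13.1, 12.4 and 12.3 at 5.5DDC and 10.8, 10.02 and 6.82 at 6.5DDC, and it fell by 0.92 on the log2 scale (SE 0.24, adjusted p = 0.029). The call for Kif18a was lost without 4.5DDC replicate 1 (adjusted p = 0.0518), 4.5DDC replicate 3 (0.0893), 6.5DDC replicate 2 (0.0733) or 6.5DDC replicate 3 (0.06), and reached 0.05 without 5.5DDC replicate 2. That for Kif4 was lost without 4.5DDC replicate 3 (adjusted p = 0.051) or 6.5DDC replicate 2 (0.0602).

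Kifc1 and Kifc5b are near copies of a minus-end directed kinesin-14 that bundles microtubules at spindle poles. Both lie on chromosome 17, and of the windows of 50 bases in their longest transcripts 45.8% of Kifc1 and 40.9% of Kifc5b occur in the other gene. Their promoter stretches above are offset copies, with 90 identical bases over the 92 aligned columns that they share (97.8%). With shared windows in the transcripts, some reads cannot be assigned to either copy alone, and their separate values are uncertain. Kifc5b stood at 13.7, 17.2 and 7.48 FPKM at 4.5DDC, 14.1, 9.81 and 10.3 at 5.5DDC and 3.49, 2.5 and 3.6 at 6.5DDC. All 3 libraries of 6.5DDC were far below the rest, and Kifc5b fell by 2.03 on the log2 scale (SE 0.29, adjusted p = 0.00276). Kifc1 stood at 34.6, 40.96 and 45.1 FPKM at 4.5DDC, 32.3, 32.4 and 30.9 at 5.5DDC and 20.7, 20.7 and 17.9 at 6.5DDC, and it fell by 1.71 on the log2 scale (SE 0.23, adjusted p = 0.00224).

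For Kifc1 counts and FPKM differed in size. Counts scaled to library size (CPM) were 47.5, 61.1 and 31.6 at 4.5DDC, 49.7, 36.8 and 36.5 at 5.5DDC and 13.8, 13.2 and 15.7 at 6.5DDC, so 4.5DDC replicate 3 was the lowest of its time point in counts and the highest in FPKM. In counts as in FPKM, 6.5DDC was lowest. The ratio of CPM to FPKM was between 0.635 and 0.880 in the 3 libraries of 6.5DDC and 0.702 in 4.5DDC replicate 3, and between 1.13 and 1.54 in the other 5 libraries. At 6.5DDC the mean CPM of Kifc1 was 30.4% of that at 4.5DDC and that of Kifc5b 24.3%. FPKM of Kifc1 at 6.5DDC was 49.1% of that at 4.5DDC, and FPKM of Kifc5b was 24.99%. With limma on log2(FPKM + 1) the change of Kifc1 over the whole span was -0.98 (adjusted p = 0.00341), in place of -1.71 in counts.

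The 8 genes of the spindle midzone and cytokinesis fell with a median of -1.18. Prc1, which cross-links antiparallel microtubules of the midzone, stood at 125, 137 and 158 FPKM at 4.5DDC, 84.9, 115 and 109 at 5.5DDC and 98.9, 81.6 and 50.6 at 6.5DDC, and it fell by 0.9995 on the log2 scale (SE 0.27, adjusted p = 0.0318). Tpx2, the spindle assembly factor that activates Aurora A, stood at 118, 136 and 163 FPKM at 4.5DDC, 85.1, 109 and 117 at 5.5DDC and 88.5, 66.8 and 37.8 at 6.5DDC, and it fell by 1.16 on the log2 scale (SE 0.24, adjusted p = 0.0119). For both genes replicate 1 of 6.5DDC overlapped with 5.5DDC and replicate 3 was the lowest of all libraries.

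Aurkb, the kinase of the chromosomal passenger complex, had the largest fall of this subset. It stood at 73.04, 87.8 and 69.7 FPKM at 4.5DDC, 49.7, 53.9 and 65.5 at 5.5DDC and 27.5, 23.3 and 21.7 at 6.5DDC, without overlap between time points, and it fell by 1.68 on the log2 scale (SE 0.18, adjusted p = 0.0011). Incenp, the scaffold of that complex, fell by 1.61, and Birc5, its survivin subunit, fell by 1.36 on the log2 scale. Of the regulators of the contractile ring, Anln, the ring scaffold anillin, fell by 1.20, and Racgap1, the GTPase-activating subunit of centralspindlin, fell by 0.93 on the log2 scale. Ect2, the exchange factor for RhoA, had the smallest fall. It stood at 51.6, 49.5 and 79.3 FPKM at 4.5DDC, 46.6, 53.1 and 58.05 at 5.5DDC and 37.9, 35.6 and 26.3 at 6.5DDC, where 4.5DDC replicate 3 was well above the other 2 replicates, and it fell by 0.88 on the log2 scale (SE 0.23, adjusted p = 0.026). Calls for Prc1 and Ect2 were lost without 4.5DDC replicate 2 (adjusted p = 0.082 and 0.0532), 4.5DDC replicate 3 (0.0903 and 0.08) or 6.5DDC replicate 2 (0.094 and 0.0739), and that for Prc1 also without 6.5DDC replicate 3 (0.0526).

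The 7 genes of chromosome structure fell with a median of -1.21. Top2a, the topoisomerase that untangles sister chromatids, was the most abundant of the 57 genes. It stood at 274, 301 and 350.5 FPKM at 4.5DDC, 179.7, 257 and 284 at 5.5DDC and 179, 148 and 93.7 at 6.5DDC. Replicate 3 of 5.5DDC exceeded replicate 1 of 4.5DDC, so the first time points overlapped, and Top2a fell by 1.17 on the log2 scale (SE 0.27, adjusted p = 0.0168). Mki67, the Ki-67 protein that coats mitotic chromosomes and marks cycling cells, stood at 65.3, 60.2 and 87.8 FPKM at 4.5DDC, 47.98, 52.2 and 54.2 at 5.5DDC and 37.3, 34.2 and 20.8 at 6.5DDC. Its time points did not overlap, and Mki67 fell by 1.22 on the log2 scale (SE 0.25, adjusted p = 0.0104).

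The other 5 genes of this subset encode condensin subunits, which compact chromosomes. Smc4, a core ATPase of condensin, was the next most abundant after Top2a, at 160.2, 160.5 and 185 FPKM at 4.5DDC, 117, 146 and 147 at 5.5DDC and 108, 100.3 and 68.2 at 6.5DDC, and it fell by 0.87 on the log2 scale (SE 0.21, adjusted p = 0.0216). Its partner Smc2 fell by 0.97 on the log2 scale. Ncapd2, a regulatory subunit of condensin I, had the largest fall of the subset at 85.2, 100.5 and 88.99 FPKM at 4.5DDC, 70.7, 75.6 and 86.3 at 5.5DDC and 43.3, 34.6 and 32.4 at 6.5DDC, and it fell by 1.32 on the log2 scale (SE 0.16, adjusted p = 0.00151). The condensin I subunits Ncapg and Ncaph both had a log2 fold change of -1.21. Without 6.5DDC replicate 2 the adjusted p was 0.0519 for Top2a, 0.0575 for Smc2 and 0.073 for Smc4. Without 4.5DDC replicate 3 it was 0.0516, 0.0567 and 0.0635 for the same genes, and without 4.5DDC replicate 2 it was 0.0504 for Smc2 and 0.0512 for Smc4.

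All 4 anaphase genes fell. Ube2c, the ubiquitin-conjugating enzyme of the anaphase-promoting complex, stood at 119, 160.3 and 135 FPKM at 4.5DDC, 107, 136 and 129.6 at 5.5DDC and 79.7, 56.6 and 48.2 at 6.5DDC, and it fell by 1.16 on the log2 scale (SE 0.22, adjusted p = 0.00737). Cdc20, the activator of that complex and the target of the checkpoint, stood at 122, 149 and 134 FPKM at 4.5DDC, 108, 109 and 115 at 5.5DDC and 69.3, 56.3 and 46.04 at 6.5DDC, and it fell by 1.24 on the log2 scale (SE 0.22, adjusted p = 0.00641). In both genes 6.5DDC lay far below the other time points.

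Espl1, the separase that cuts cohesin at anaphase, had the smallest adjusted p of the 57 genes. It stood at 12.5, 17.3 and 12.4 FPKM at 4.5DDC, 11.8, 10.7 and 11.6 at 5.5DDC and 4.05, 3.89 and 3.59 at 6.5DDC, and it fell by 1.87 on the log2 scale (SE 0.15, adjusted p = 0.000474). The 3 libraries of 6.5DDC were close to one another, and 4.5DDC replicate 2 was high. Pttg1, the securin that inhibits separase, stood at 99.8, 110.4 and 110.1 FPKM at 4.5DDC, 79.7, 99.5 and 110.1 at 5.5DDC and 74.4, 63.3 and 42.02 at 6.5DDC, and it fell by 0.87 on the log2 scale (SE 0.21, adjusted p = 0.0215). The call for Pttg1 was lost without 4.5DDC replicate 2 (adjusted p = 0.0679), 4.5DDC replicate 3 (0.058) or 6.5DDC replicate 2 (0.0623).

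Both transcription factors that drive late cell cycle genes fell. Mybl2, or B-Myb, stood at 23.1, 27.7 and 20.1 FPKM at 4.5DDC, 11.9, 14.5 and 13.5 at 5.5DDC and 5.38, 3.21 and 4.77 at 6.5DDC, without overlap between time points, and it fell by 2.03 on the log2 scale (SE 0.22, adjusted p = 0.00125). Foxm1, the forkhead factor of G2 genes, stood at 48.9, 54.04 and 60.3 FPKM at 4.5DDC, 31.4, 38.05 and 47.5 at 5.5DDC and 21.8, 19.6 and 14.1 at 6.5DDC, also without overlap, and it fell by 1.66 on the log2 scale (SE 0.16, adjusted p = 0.000844). Both had larger falls than the median of any other subset, but 2 genes are too few to describe a subset.

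The kinetochore, kinesin and checkpoint genes were compared as subsets. Their medians over the whole span were -1.19, -1.24 and -1.20. In FPKM as a percentage of the 4.5DDC mean, the medians of the same subsets were 53.9%, 53.4% and 53.8% in 6.5DDC replicate 1, 47.0%, 48.3% and 44.0% in replicate 2 and 27.9%, 30.9% and 35.1% in replicate 3. The order of the subsets thus differed between libraries, and no test of the difference between them was made. Median log2 fold changes within numbers 1, 2 and 3 were -0.78, -1.03 and -1.91 for kinetochore genes, -0.70, -1.08 and -1.89 for kinesins and -0.59, -1.07 and -2.04 for checkpoint genes. Over the first interval the medians were -0.48, -0.45 and -0.51 and over the second -0.66, -0.77 and -0.66. Each subset held genes on both sides of the overall median, such as Cenph and Knstrn, Kifc5b and Kif18a, or Mad2l1 and Bub3.

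**Figure D3:**
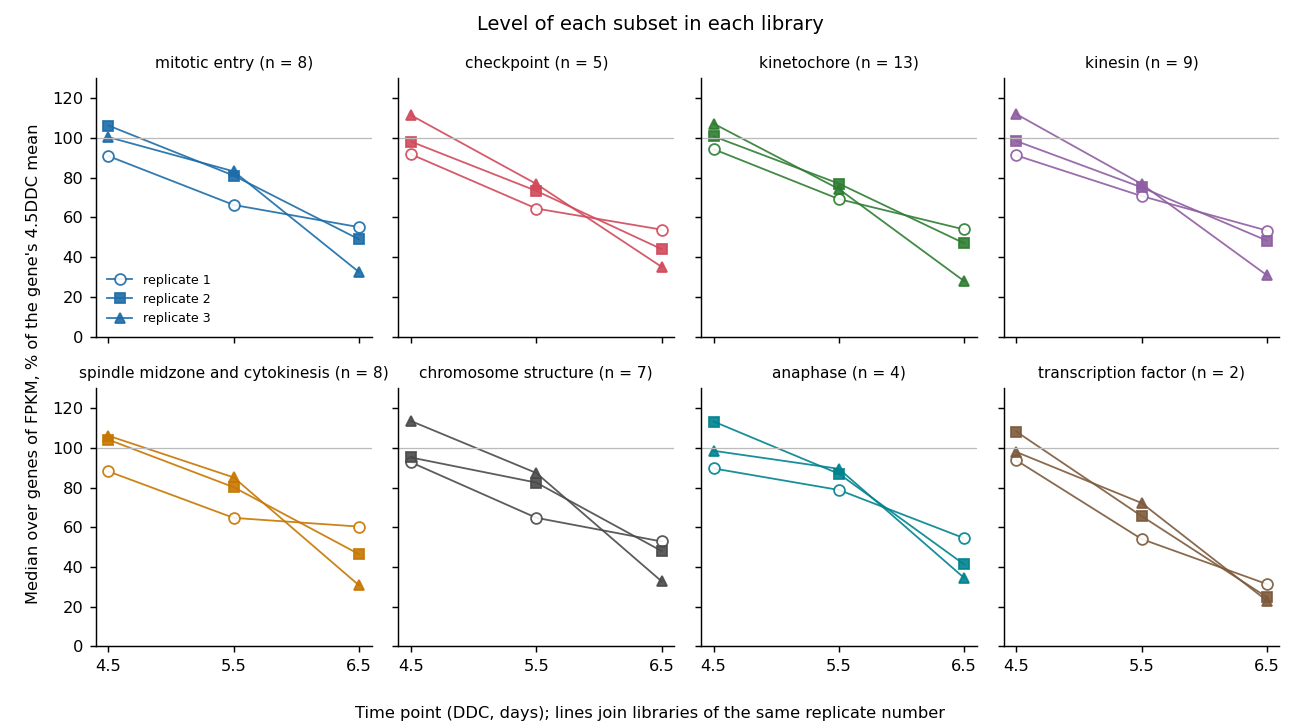
Each panel is a subset, and each point is the median over its genes of the FPKM in 1 library as a percentage of the gene's 4.5DDC mean, with lines joining libraries of the same replicate number. Kif20a is left out of the kinesins because of its value of 0, and replicate 3 is the lowest point of 6.5DDC in all 8 panels.

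The 2 intervals were compared next. From 4.5DDC to 5.5DDC 56 of the 57 genes had a lower fitted level, against 49% of all genes, with a median of -0.44. None of the 57 passed the test, against 0.0136% of all genes called lower and 0.0746% called in either direction. At an unadjusted p under 0.05 there were 18 of the 57, against 15.4% of all genes, a count that depended on single libraries. It was 10 without 4.5DDC replicate 2, 6 without 4.5DDC replicate 3, 4, 8 and 8 without replicates 1, 2 and 3 of 5.5DDC, and 32 and 36 without replicates 1 and 3 of 6.5DDC. The share of 15.4% belongs to the fit of all 9 libraries, so these counts cannot be read against it. DESeq2 called Cenph and Mybl2, whose fitted changes were -0.96 (SE 0.23, adjusted p = 0.152) and -0.95 (SE 0.22, adjusted p = 0.152) in the edgeR fit. These are 3.51% of the 57 genes, and of all genes DESeq2 called 1.57% lower and 3.80% in either direction. Cdc25b, at 0.07 (SE 0.23, adjusted p = 0.925), was the 1 gene with a fitted change above 0. In FPKM all 3 libraries of 5.5DDC lay below all 3 of 4.5DDC for 44 genes, an order shown by 11.7% of all genes, and the overlapping genes included Plk1, Cenpf, Kifc5b, Top2a, Ncapd2, Ube2c and Pttg1. The 44 include Kif20a, whose 0 FPKM in 5.5DDC replicate 2 cannot be read as a level.

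From 5.5DDC to 6.5DDC all 57 genes had a lower fitted level, against 48.1% of all genes, with a median of -0.70. Of the 57 genes 7 passed the test, against 0.197% of all genes called lower. These were Espl1 at -1.53 (SE 0.15, adjusted p = 0.0244), Foxm1 at -1.34 (SE 0.16, adjusted p = 0.0378), Plk1 at -1.45 (SE 0.22, adjusted p = 0.0459), Aurkb at -1.21 (SE 0.18, adjusted p = 0.0459), Ncapd2 at -1.04 (SE 0.16, adjusted p = 0.0459) and the copies Kifc1 at -1.50 (SE 0.23, adjusted p = 0.0459) and Kifc5b at -1.88 (SE 0.29, adjusted p = 0.0459). On log2(FPKM + 1) the change of Kifc1 over this interval was -0.67 (adjusted p = 0.0875 with limma), and limma voom on counts gave -1.55 (adjusted p = 0.0636). Kifc5b also lost its call with limma voom (adjusted p = 0.0588). With limma on log2(FPKM + 1), Plk1, Foxm1 and Kifc5b lost theirs too (adjusted p = 0.0589, 0.0867 and 0.0867). Unadjusted p was under 0.05 for 50 genes, against 18.5% of all genes. With a block for the replicate number, which paired libraries of adjacent time points, Incenp was called as well (adjusted p = 0.0359, against 0.0518 without the block), and 0.536% of all genes were called lower. The edgeR calls depended on single libraries. None was left without 5.5DDC replicate 2, 5.5DDC replicate 3, 6.5DDC replicate 2 or 6.5DDC replicate 3, and there 0% of all genes were called lower. Only Espl1 was left without 4.5DDC replicate 1 or 5.5DDC replicate 1, where 0.0067% and 0.0269% of all genes were called lower. There were 4 without 4.5DDC replicate 2 (0.125% of all genes called lower) and 3 without 4.5DDC replicate 3 (0.0729%). Without 6.5DDC replicate 1 there were 20, and 0.858% of all genes were called lower. Without replicate 1 of every time point, a choice made after seeing the data, 30 genes were called (52.6%), against 2.51% of all genes called lower in that fit. In FPKM the time points did not overlap for 49 genes, against 13.9% of all genes. Kif20a is not among the 49, because of its listed 0 FPKM in 5.5DDC replicate 2, which cannot be read as a level.

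**Figure D4:**
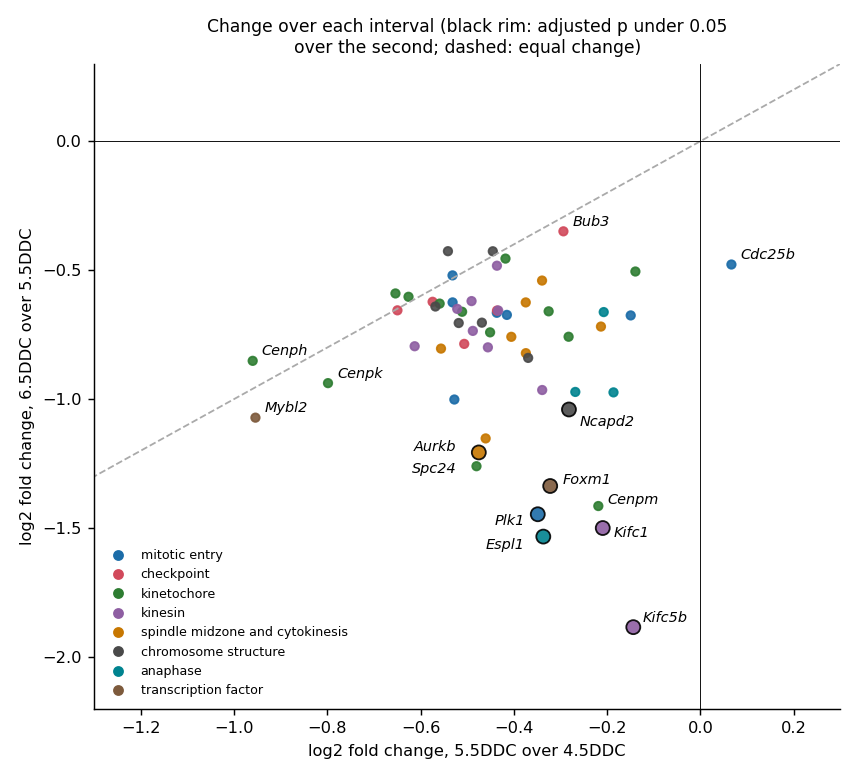
Each point is 1 of the 57 genes, with its log2 fold change from 4.5DDC to 5.5DDC on the horizontal axis and from 5.5DDC to 6.5DDC on the vertical axis. Both axes use the 5.5DDC libraries, the dashed line marks equal change, and the 7 rimmed genes passed the test over the second interval.

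Of the 57 genes, 51 had the steeper fitted change over the second interval, and the first interval held a median of 38.6% of the whole fall. Libraries numbered 1 went the other way. Within number 1 the medians were -0.45 over the first interval and -0.30 over the second, and 18 of the 57 genes had the steeper change over the second. Within number 2 they were -0.36 and -0.73, and within number 3 -0.52 and -1.38, with 56 genes steeper over the second in each. In the fit, the 6 genes with the steeper change over the first were Cenph, Cenpn, Nuf2, Ccna2, Smc2 and Smc4, at between 50.5% and 55.9% of the fall. At the other end, besides Cdc25b with its fitted change above 0 over the first interval, were Kifc5b at 7.1%, Kifc1 at 12.3%, Cenpm at 13.4%, Ube2c at 16.1% and Espl1 at 18.02%. A test of the difference between the intervals called none of the 57 genes (smallest adjusted p = 0.76), and 0% of all genes. At an unadjusted p under 0.05 there were 7 of the 57, against 4.76% of all genes, and these were the same genes that passed over the second interval. With 1 library left out this count lay between 5 (without 5.5DDC replicate 3) and 17 (without 6.5DDC replicate 1). The share of 4.76% belongs to the fit with no library left out, so this range cannot be read against it. A test of any difference among the 3 time points called 46 of the 57, against 9.63% of all genes, and between 11 and 53 with 1 library left out, where between 2.17% and 12.1% of all genes were called. It missed Bub1, Bub3, Cdc25b, Cenpi, Ect2, Kif18a, Knstrn, Prc1, Pttg1, Smc2 and Smc4. The counts with fewer than 30 genes came without 6.5DDC replicate 2 (11), 4.5DDC replicate 2 (16), 4.5DDC replicate 3 (18), 5.5DDC replicate 2 (24) and 5.5DDC replicate 3 (24).

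Genes of this group varied together across libraries, as a description over 9 libraries that share the time course. The median correlation of log2 FPKM between pairs of the 56 genes was 0.931 over the 9 libraries and 0.720 after the mean of each time point was taken out. No values for other genes stand beside these, so they do not set the group apart. Within time points Tpx2, Kif4 and Prc1 followed the median of the group at r = 0.997, 0.993 and 0.992. Cdc25b at r = -0.664, Kifc5b at -0.396 and Cenpm at -0.0357 did not, and Mybl2 stood at 0.0379.

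Base composition of the transcripts was set beside these changes. GC content of the longest annotated transcript was between 34.8% and 56.98% for the 57 genes (median 46.9%), and the median over all genes was 49.6%. Across the 57 genes its correlation with the fitted change was 0.409 over the first interval, -0.722 over the second and -0.447 over the whole span, and across 13735 genes it was 0.156, -0.455 and -0.204. Genes are not independent replicates, and both intervals use the same 5.5DDC libraries with opposite sign. The 19 genes of highest GC, of at least 49.0%, had a median change of -1.07 over the second interval, and the 19 of lowest GC, of at most 43.4%, had -0.64. Over the whole span the medians were -1.61 and -1.17. All 7 genes called over the second interval are among the 19 of highest GC. The correlation of GC with the deviations of the 57 genes from their time point mean varied by library. For replicates 1, 2 and 3 it was 0.261, 0.776 and -0.756 at 4.5DDC, 0.314, -0.515 and 0.0527 at 5.5DDC and -0.191, -0.694 and 0.665 at 6.5DDC. The part of base composition in the differences between genes was not tested. Other genes with GC between the quartiles of the 57, 42.9% and 51.4%, had a median change of 0.067 over the whole span.

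**Figure D5:**
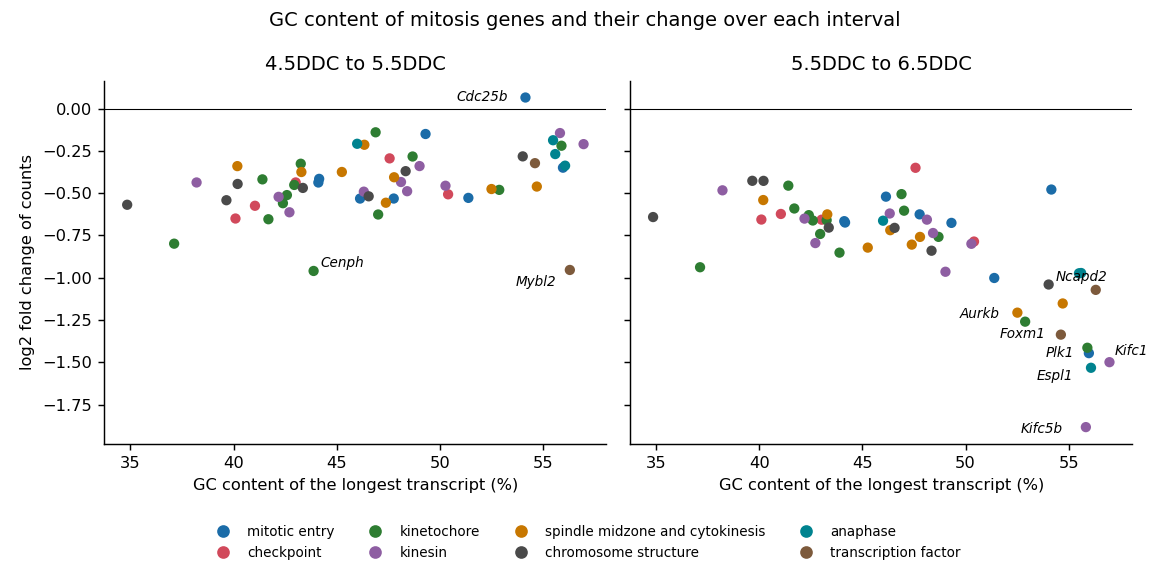
The GC content of the longest transcript (%) is plotted against the log2 fold change of counts over each interval for the 57 genes, coloured by subset. On the right, GC-rich genes such as Plk1, Espl1, Foxm1, Kifc1 and Kifc5b lie lowest, and on the left Mybl2 and Cenph do.

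The promoter letters were set beside the changes as well. With a CHR anywhere in the 300 bases (35 genes) the median change over the whole span was -1.19, and without it (13 genes) it was -1.21. Genes without a CHR ranged from -2.03 for Mybl2 to -0.64 for Knstrn, and the genes with one from -2.03 for Kifc5b to -0.41 for Cdc25b. In the stretches above, the CHR and the nearest CCAAT begin at positions -18 and -8 from the start in Cdc20, at -27 and -44 in Espl1 and at -19 and -45 in Kif11. A CHR was found for 6 of 12 kinetochore genes, 8 of 9 kinesins and 4 of 5 checkpoint genes with a promoter in the table.

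Overlap with neighbours can affect some counts, in a direction that was not measured. The sources used here do not say whether counting took the strand into account. On GRCm38, 8 of the 57 genes overlap an annotated gene of the opposite strand over more than 5% of their exonic bases. These are Kif20a with Cdc23 (29.3%), Ube2c with Tnnc2 (22.8%), Kif4 with Pdzd11 (15.1%), Ncapg with Lcorl (13.4%), Cdc25c with Gm3550 (12.7%), Ccna2 with Exosc9 (12.5%), Prc1 with Rccd1 (11.1%) and Plk1 with Gm44985 (7.09%). Copies elsewhere share windows of 50 bases with Ccnb1 (34.1%, with Ccnb1-ps), Mybl2 (23.8%, with Gm3320) and Cdc20 (11.3%, with Gm7856). These percentages are shares of bases or windows and not of reads. Levels of these genes are uncertain by an amount that was not measured.

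Lists of related genes were measured beside the 57. Of 103 other mitotic genes, 95 had a lower fitted level at 6.5DDC than at 4.5DDC and 71 were called lower, none higher, with a median of -1.05, against 49.8% of all genes with a lower fitted level and 9.53% called lower. The largest changes were those of Cks2, a Cdk1-binding subunit (-2.40, SE 0.50, in counts, with a mean of 71.8 ± 4.04 FPKM at 4.5DDC and 32.7 ± 9.03 FPKM at 6.5DDC), Gtse1, a microtubule-associated protein of G2 (-2.21, SE 0.25), Pkmyt1, the kinase that inhibits Cdk1 (-2.17, SE 0.43), Apitd1, the centromere protein CENP-S (-1.90, SE 0.27) and Kif18b, a mitotic kinesin (-1.83, SE 0.22). Of 40 S phase genes, 37 were called lower, with a median of -1.51 and the largest fall in Uhrf1. Their median was -0.79 over the first interval and -0.71 over the second, and 15 of the 40 had the steeper change over the second, against 51 of the 57 mitotic genes, 62 of the 103 other mitotic genes and 7401 of all 14742 genes. The S phase medians differed by replicate number over the second interval, at -0.02, -0.95 and -1.23 within numbers 1, 2 and 3, and were -0.75, -0.77 and -0.78 over the first, so within numbers 2 and 3 they were lower over the second interval. No S phase gene was called in the test of the difference between intervals either. The lists were chosen with results of these libraries known, and no test was made between them.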

How the data were processed

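Prominin-1-sorted NSCs were profiled by RNA-seq in 3 libraries for each of 4.5DDC, 5.5DDC and 6.5DDC, grouped by their titles. The authors mapped single-end reads of 50 bases to GRCm38 with TopHat 2.0.4. The deposited counts are raw values of htseq-count 0.6.1 for each gene. For 98 symbols, none among the 57, the deposited values were not whole, so the table is treated as estimated counts from the authors' counting, although whole counts had been assumed when the tests were chosen, and values were rounded. The authors computed FPKM with Cufflinks 2.1.1, and these served as levels. The deposited log2 values, which the authors made with limma's voom function, were recomputed from the counts as a check and entered no test. The annotation release and the strand setting are not given in the sources used here.

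R 4.3.3, edgeR 4.0.16, limma 3.58.1 and DESeq2 1.42.0 served for the tests. Python 3.11.15, pandas 2.3.3 and numpy 2.4.6 served for tables and exact tests, and matplotlib 3.10.9 for figures. After filterByExpr, 14742 genes remained, and TMM gave scaling factors from 0.951 to 1.035. A single quasi-likelihood fit of the time point held all 9 libraries (6 residual degrees of freedom), with Benjamini-Hochberg adjustment over every gene tested. The SE of a fold change was taken from its F statistic. A floor of 3 counts corresponds to between 0.118 and 0.271 CPM, depending on the library, which allows for counting error alone. The edgeR fit of all 9 libraries was first tested on simulated counts, for the whole span and the first interval. The other fits and comparisons were not tested in this way.

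The 57 genes, the lists and the tests were chosen with earlier results of these data known. Every one of the 57 genes was to be named within its subset. Values in every library were to be given for the most negative and the most positive change and the 2 highest mean levels of each subset, and for Mki67, Top2a, Cdk1, Ccnb1, Plk1, Foxm1, Mybl2, Bub1, Bub3, Ndc80, Cenpa, Kif11, Kifc1 and Kifc5b. The 5 largest called changes were to be given for the other mitotic genes. Other scalings, filters, tools, pseudocounts of 1 and 0.1 on FPKM, fits of 6 libraries, a replicate block and each library left out were tried as alternatives. Replicate numbers come from the titles. Across genes, deviations from the time point mean correlated between libraries of the same number at 0.743, 0.386 and 0.452 from 4.5DDC to 5.5DDC and at 0.454, 0.367 and 0.197 from 5.5DDC to 6.5DDC, and adjacent time points were treated as paired by that number. Replicate 2 with the later replicate 3, and replicate 3 with the later replicate 2, correlated at 0.291 and 0.390 over the first interval. Over the second these values were 0.225 and 0.405, so numbers 2 and 3 were not clearly told apart. Positions, overlaps and GC come from GENCODE annotation on GRCm38, and promoters from RefSeq on GRCm38.p6.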

Additional observations from a re-analysis of the deposited data

How the results depend on the processing

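Over the whole span, 38 of the 57 genes were called under all 22 alternatives, 18 lost their call under at least 1 and Cdc25b was called under none. No fitted change of a called gene reversed. The calls lost were most often those without 6.5DDC replicate 2 (17 genes). Without 1 library between 39 and 56 genes were called, the median change lay between -1.40 and -0.98, and that of the first interval between -0.51 and -0.35. From 4.5DDC to 5.5DDC, where edgeR called none, DESeq2 called 2 (1.57% of all genes called lower), a block for replicate 1 against 2 and 3 called 2 (0.767%), and a fit without replicate 1 of every time point called 1 (0.895%). The last 2 settings were chosen after seeing the data. From 5.5DDC to 6.5DDC edgeR called 7, and 50 had an unadjusted p under 0.05, against 18.5% of all genes. DESeq2 called 26 (2.97% of all genes called lower), and limma on log2(FPKM + 1) called 3 (0.0611%). Limma on log2(FPKM + 0.1) and a fit of the 6 libraries called 0 (0%). The block for replicate 1 against 2 and 3 called 19 (1.88%), and the fit without replicate 1 of every time point 30 (2.51%). Fits without 1 library called between 0 and 20 (up to 0.858%). The test of any difference called between 11 and 53 without 1 library. The cause of these differences was not tested. Where 1 library was left out, the fit took the spread from all time points. The lowest count of any of the 57 genes was 42 reads, in Cenpm, and the part of depth in the calls was not tested.

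The block for the replicate number left 56 of the 57 genes called over the whole span and 46 in the test of any difference. Over the second interval it called 8 in place of 7. In the 3 comparisons of time points it changed no call among the 57 genes besides that for Incenp. Of all genes, the block called 10.2% lower over the whole span (9.53% without it) and 23.2% in either direction (18.7% without it). For any difference it called 14.8% of all genes (9.63% without it), and over the second interval 0.536% lower (0.197% without it). Between 4.5DDC and 6.5DDC the deviations of libraries of the same number correlated for number 1 (0.383) and not for numbers 2 and 3 (-0.040 and -0.215). Replicate 2 of 4.5DDC correlated with replicate 3 of 6.5DDC (0.460), and replicate 3 of 4.5DDC with replicate 2 of 6.5DDC (0.487). Values given within a number over that span thus describe libraries that share a label, and not pairs.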
